A study of Mus musculus with 6 samples.

Results

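The genes described here encode the enzymes that remove peroxides and superoxide, and the thioredoxin and glutathione systems that reduce some of those enzymes. They also encode the steps that supply these systems with NADPH. Of 43 genes chosen by name for these roles, 39 had at least 1 probe set that the array annotation pairs with that symbol alone, and each gene was read from its brightest probe set, by mean log2 signal of the 6 arrays. These 39 were compared with 18193 genes read in the same way. Prdx1, Prdx5, Prdx6 and G6pdx had no such probe set and were not analysed here.

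The samples were Ter119-positive cells sorted from mouse fetal liver at embryonic day 14.5. Ter119 marks maturing red cell precursors. There were 3 pools of wild type embryos and 3 pools of STAT5 knockout embryos, each combining 3 to 5 embryos of 1 genotype and each hybridised to 1 Affymetrix Mouse430_2 array. The labels give no allele, promoter or strain for the knockout. STAT5A and STAT5B are the transcription factors through which the erythropoietin receptor signals, and the comparison asks which transcripts differ in red cell precursors that lack them.

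Red cell precursors build hemoglobin, and the iron, heme and oxygen they hold generate superoxide and hydrogen peroxide. Superoxide dismutases turn superoxide into hydrogen peroxide, which catalase, glutathione peroxidases and peroxiredoxins then destroy. Glutathione, a small thiol made from glutamate, cysteine and glycine, donates electrons to glutathione peroxidases, and the protein thioredoxin to peroxiredoxins. Both donors are reduced again with NADPH from the pentose phosphate pathway. Many of these genes are known targets of the transcription factor NRF2, which KEAP1 marks for degradation and BACH1 opposes at its DNA sites.

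The arrays had median signals between 175.6 and 215.8. At all 4 probe sets of Stat5a and Stat5b each knockout pool read below each wild type pool, by means of -3.77 to -1.29 on the log2 scale, and the position of the deletions relative to these probe sets is not given here. Of the erythroid markers, 10 of 12 were measured and none had both means under the control level. The knockout mean of Hba-a1, 7.16, lay under that level (7.34 on the log2 scale), with 8.02, 8.64 and 4.83 in knockout pools 1 to 3. Among the 10 erythroid markers the knockout mean was lower for 9 (median difference -0.19), and none passed. Epb42, Tfrc and Rhag read lower without overlap (30%, where 9.85% of all genes did). The part of this in the genes below was not tested. This level, a signal of 162.5, is the 95th percentile over 27 probe sets for transcripts of Bacillus subtilis, and all 39 antioxidant genes exceeded it in both genotypes. All 17 measured hepatocyte markers had a lower mean in knockout pools (summed signal 173492 to 300162 in wild type and 150307 to 164776 in knockout pools), and none of them was below the control level. Of 10 endothelial markers 8 had lower and 2 higher knockout means, of 8 granulocyte markers 7 and 1, and of 10 macrophage markers 4 and 6. Of the endothelial markers 2 fell without overlap, Lyve1 (at least 4.04-fold) and Eng (by -0.83). Some markers of each of these lists lay under the control level in both genotypes. The part of these cell types in the genes below was not tested. Of 9 markers of immature progenitors 4 (Kit, Myb, Myc and Cd44) read higher in each knockout than in each wild type pool, where 7.02% of all genes did. The other 5 (Flt3, Meis1, Hoxa9, Cd34 and Gata2) had lower knockout means, by -1.42 to -0.03, with overlap. Flt3, the -1.42, had its knockout mean under the control level, so its fall is only at least 1.25-fold. Cd34 lay under that level in both genotypes. The summed signal of the 9 was 4322 to 5552 in wild type and 7742 to 9285 in knockout pools, while their median difference was -0.03. Differences below are mean log2 signal in knockout minus wild type, and their standard errors (SE) are from limma without a trend. Means are ± SD. In pooled tissue a transcript lost because fewer cells of a type were present cannot be told apart from less of it per cell.

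Promoters are shown first for 3 genes whose groups did not overlap, Gss, which read lower in every knockout pool, and Txnip and Sod1, which read higher. Each is the 250 bases before the start of transcription, 5′ to 3′, from RefSeq on the build GRCm38.p6, and motif matches are in capitals. Gss lies at chr2:155592811-155593060 on the minus strand, Txnip at chr3:96557707-96557956 on the plus strand and Sod1 at chr16:90220512-90220761 on the plus strand.
Gss: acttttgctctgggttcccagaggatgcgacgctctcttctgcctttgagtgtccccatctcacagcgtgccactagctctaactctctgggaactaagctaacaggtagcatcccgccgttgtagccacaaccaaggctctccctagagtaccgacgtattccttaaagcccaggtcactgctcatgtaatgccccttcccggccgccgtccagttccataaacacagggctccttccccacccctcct
Txnip: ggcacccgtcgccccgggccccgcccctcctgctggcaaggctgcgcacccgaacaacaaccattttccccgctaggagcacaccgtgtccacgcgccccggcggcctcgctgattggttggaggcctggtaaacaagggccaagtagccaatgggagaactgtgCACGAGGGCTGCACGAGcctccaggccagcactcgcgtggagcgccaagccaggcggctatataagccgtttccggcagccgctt
Sod1: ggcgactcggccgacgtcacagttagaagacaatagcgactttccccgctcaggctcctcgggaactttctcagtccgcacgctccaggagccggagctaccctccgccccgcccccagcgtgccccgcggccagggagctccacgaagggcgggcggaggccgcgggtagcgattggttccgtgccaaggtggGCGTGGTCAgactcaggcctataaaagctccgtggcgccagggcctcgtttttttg
The search covered 300 bases (250 before and 50 after the start) and both strands. The antioxidant response element core TGACNNNGC, to which NRF2 and BACH1 bind, was in 7 of 48 promoters of the 34 measured antioxidant genes with an entry (14.6%), beside 12.4% of all 32851 promoters. The palindromic STAT5 motif TTCNNNGAA was in 5 of the 48 (10.4%) and in 8.3% of all. Among the 3 genes shown, Sod1 held a match to the first motif, starting 56 bases before the start. Gss and Txnip held neither. Of all the antioxidant genes whose groups did not overlap, Gclc and Msra had no entry. Among the others only Sod1 held the first motif and only Sod2 the second. In Txnip the capitals mark a pair of CACGAG repeats with 5 bases of any kind between them, the carbohydrate response element through which the glucose-responsive factor MondoA is known to act on this gene. The pattern was set after this sequence had been seen, so its match in Txnip was fixed in advance. Of the 32851 promoters only that of Txnip held this exact pattern, which does not show how many hold a looser form of the element. Whether MondoA acts on Txnip in these pools was not tested.

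Mean signals of the antioxidant genes lay in both directions in knockout pools, with 19 higher and 20 lower (20 and 19 after quantile normalization or median centring). Gss fell, the 1 gene of the 39 to pass over all genes, once limma let the variance follow the mean signal (the trend). In the fit without that trend no antioxidant gene passed an adjusted p of 0.05 (limma with Benjamini-Hochberg adjustment), where 0.044% of all genes did, and 4 of the 39 had an unadjusted p under 0.05, or 10.3% beside 8.9% of all genes. With the trend 1 of 39 passed (2.56%, beside 0.44% of all genes in either direction and 0.198% lower in knockout), and 10 had an unadjusted p under 0.05, or 25.6% beside 11% of all genes. Of the 18193 genes in these shares, 5751 had both means under the control level, while all 39 antioxidant genes lay above it. Shares among genes of like signal were not computed. The groups did not overlap for 11 of the 39, or 28.2% beside 16.9% of all genes. Of these, 5 read higher in every knockout pool (Sod1, Txnip, Gclc, Tkt and Keap1), where 7.02% of all genes did, and 6 read lower (Prdx4, Gpx4, Sod2, Gss, Nqo1 and Msra), where 9.85% did. These counts were 7 and 7 with quantile normalization and 8 and 3 with median centring. Under all 3 scalings 8 genes had no overlap, the 5 higher ones and Gpx4, Gss and Msra. The median difference was -0.05 over the 39 genes and -0.08 over all genes, 0.01 and -0.04 after quantile normalization, and 0.06 and 0.03 after median centring.

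**Figure D1:**
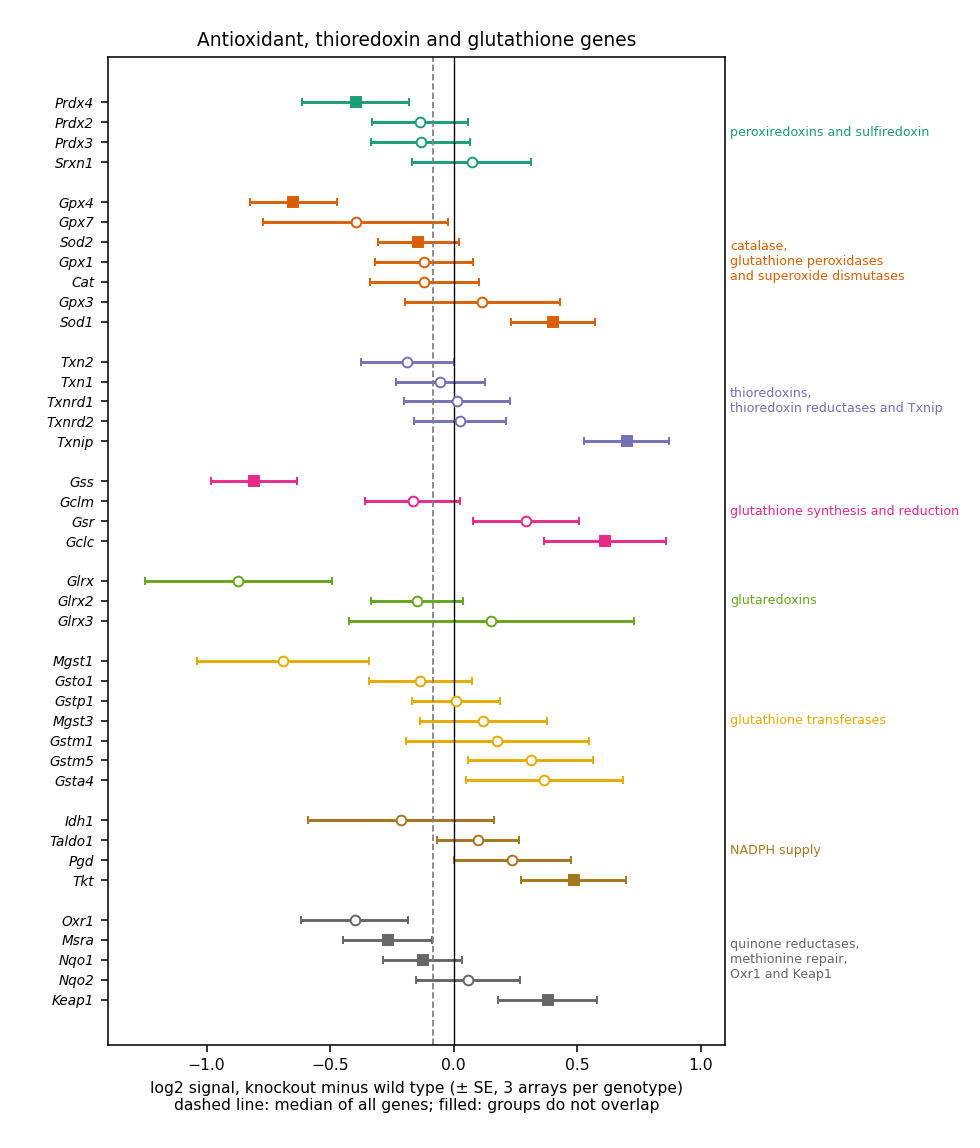
Difference in log2 signal, knockout minus wild type, of the 39 measured antioxidant genes, grouped by role, with SE bars from limma's fit on 3 arrays per genotype. Filled squares are the 11 genes whose groups do not overlap, open circles the others, and the dashed line is the median of all genes at -0.08. Gss (-0.81) and Glrx (-0.87) lie farthest to the left and Txnip (0.70) farthest to the right.

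Glutathione is made in 2 steps, and in knockout pools the gene of the second lay lower and the catalytic gene of the first higher. Gss encodes glutathione synthetase, which adds glycine in the second step. Its log2 signal was 11.06, 10.94 and 10.79 in wild type pools 1 to 3 and 10.04, 10.09 and 10.23 in knockout pools 1 to 3. Each knockout pool thus read below each wild type pool by more than either group spread. The means were 10.93 ± 0.13 and 10.12 ± 0.10 (n = 3 each), a difference of -0.81 (SE 0.17), or 1.75-fold less in knockout. The adjusted p was 0.355 in limma's fit without the trend and 0.0473 with it. The second Gss probe set differed by -0.75, also without overlap. The call with the trend was lost when the replicate number was a block (adjusted p = 0.0902), after median centring (0.152), with the mean of both probe sets (0.0812) and without any 1 of the 6 arrays (0.0556 without wild type pool 3 to 0.198 without wild type pool 1), while the difference stayed between -0.88 and -0.70 in these fits.

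Gclc encodes the catalytic subunit of glutamate-cysteine ligase, the rate-limiting first step. It read 11.99, 11.25 and 11.88 in wild type pools and 12.25, 12.29 and 12.43 in knockout pools. All knockout pools were above all wild type pools, and wild type pool 2 was the low one of its group. The difference was 0.61 (SE 0.25, limma with the trend adjusted p = 0.264), 0.39 without wild type pool 2, and 0.76 at the second probe set, where the groups did not overlap either. Gclm, the modifier subunit of the same ligase, differed by -0.17 (SE 0.19) with overlapping groups. Gsr, glutathione reductase, which returns oxidised glutathione to its reduced form with NADPH, differed by 0.29 (SE 0.22), with its highest value, 12.04, in knockout pool 3.

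Among catalase, the glutathione peroxidases and the superoxide dismutases, Gpx4, Sod1 and Sod2 had groups that did not overlap. Gpx4 reduces lipid peroxides inside membranes. It read 13.70, 13.55 and 13.90 in wild type pools and 13.10, 13.07 and 13.03 in knockout pools. The knockout pools lay close together and below all wild type pools. The difference was -0.65 (SE 0.18), or 1.57-fold less in knockout, with an adjusted p of 0.0921 (limma with the trend), so Gpx4 did not pass. Its second probe set differed by -0.46 without overlap. Sod1, the cytosolic superoxide dismutase, read 13.64, 13.45 and 13.44 in wild type pools and 13.84, 13.99 and 13.91 in knockout pools. Here each knockout pool was the higher one, by 0.40 on average (SE 0.17). Of its 4 probe sets above the control level all differed upward, by 0.05 to 0.77, and at 3 the groups did not overlap. Sod2, the mitochondrial dismutase, differed by -0.14 (SE 0.17). Its knockout values of 11.86, 11.86 and 11.78 lay just under wild type values of 11.90, 11.94 and 12.09, and its 3 probe sets above the control level gave differences from -0.14 to 0.20. A further Sod2 probe set, under that level in both genotypes, read higher in every knockout pool, by 0.95.

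For catalase and the other glutathione peroxidases the groups overlapped. Gpx1, the cytosolic glutathione peroxidase, read 15.88, 15.97 and 15.76 in wild type pools and 15.51, 15.97 and 15.77 in knockout pools. Its signal was 76.4% to 90.1% of the highest on each array, so it lay near the ceiling. Catalase (Cat) differed by -0.12 (SE 0.22), the secreted peroxidase Gpx3 by 0.12 (SE 0.31) and Gpx7, a peroxidase of the endoplasmic reticulum, by -0.40 (SE 0.38). The difference of Gpx1, -0.12 on the deposited scale, was 0.07 after quantile normalization.

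Peroxiredoxins reduce hydrogen peroxide with a reactive cysteine that thioredoxin restores. Prdx2, the abundant peroxiredoxin of red cells, read 15.79, 15.84 and 15.64 in wild type pools and 15.37, 15.79 and 15.70 in knockout pools, at 72.2% to 85.8% of the highest signal of each array. The groups overlapped, and the difference of -0.14 became 0.04 after quantile normalization. Its second probe set read between 13.94 and 14.60 in 5 pools and 9.78 in knockout pool 3 alone, which sets the difference of -1.66 there. Prdx4, the peroxiredoxin of the endoplasmic reticulum, read 11.51, 11.52 and 11.26 in wild type pools and 11.16, 10.71 and 11.24 in knockout pools. All knockout values were below all wild type values, but knockout pool 3 only just. The difference was -0.40 (SE 0.22), -0.23 without knockout pool 2, and between -0.43 and -0.31 over the 3 probe sets above the control level. The mitochondrial Prdx3 differed by -0.13 (SE 0.20), and Srxn1, sulfiredoxin, which repairs overoxidised peroxiredoxins, by 0.07 (SE 0.24), with probe sets from -0.30 to 0.22.

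**Figure D2:**
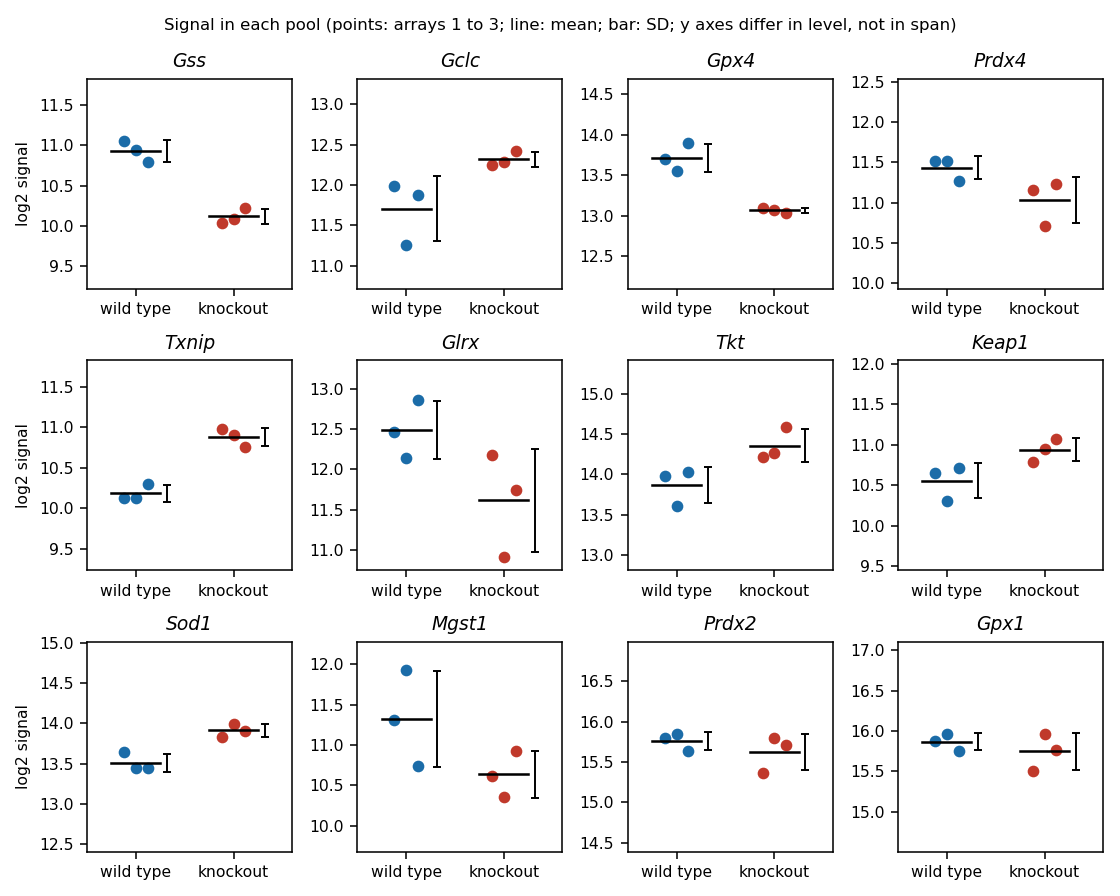
Log2 signal of 12 antioxidant genes in each pool, wild type in blue and knockout in red, with the mean as a line and the SD as a bar (n = 3). The groups do not overlap for Gss, Gclc, Gpx4, Prdx4, Txnip, Tkt, Keap1 and Sod1, while they overlap for Glrx, Mgst1, Prdx2 and Gpx1.

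In the thioredoxin system the groups were apart for Txnip and overlapped for both thioredoxins and both reductases. Txnip encodes a protein that binds reduced thioredoxin and limits glucose uptake. It read 10.12, 10.12 and 10.30 in wild type pools and 10.98, 10.91 and 10.76 in knockout pools. Every knockout pool was above every wild type pool. The difference was 0.70 (SE 0.17), or 1.63-fold more in knockout, and 0.65 at the second probe set, again without overlap. It did not pass (adjusted p = 0.0738, limma with the trend), and without 1 array the difference stayed between 0.65 and 0.77. The thioredoxins Txn1 (cytosolic) and Txn2 (mitochondrial) differed by -0.05 (SE 0.18) and -0.19 (SE 0.19). The reductases Txnrd1 and Txnrd2, selenoproteins that recharge them with NADPH, differed by 0.01 (SE 0.22) and 0.03 (SE 0.19). Signs of Txn1 and Txnrd1 depended on the scaling (Txn1 0.06 after median centring, Txnrd1 -0.01 after quantile normalization). Probe sets above the control level gave both directions for Txn2 (-0.19 to 0.20), Txnrd1 (-0.20 to 0.01) and Txnrd2 (-0.34 to 0.03).

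Glutaredoxins use glutathione to reduce protein disulfides and mixed disulfides. Glrx, the cytosolic one, had the largest mean difference in size of the 39 genes, and also one of the widest spreads. It read 12.46, 12.14 and 12.86 in wild type pools and 12.18, 10.92 and 11.75 in knockout pools. Knockout pool 1 lay inside the wild type range and pools 2 and 3 below it. The difference was -0.87 (SE 0.38) with an adjusted p of 0.305 (limma with the trend), and it was -0.52 without knockout pool 2. The second Glrx probe set differed by -0.66, also with overlap. The mitochondrial Glrx2 and the iron-handling Glrx3 differed by -0.15 (SE 0.19) and 0.15 (SE 0.58).

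NADPH is supplied by the pentose phosphate pathway and by isocitrate dehydrogenase. Tkt, transketolase, in the non-oxidative arm of the pathway, read 13.97, 13.61 and 14.02 in wild type pools and 14.21, 14.27 and 14.59 in knockout pools. All knockout pools read above all wild type pools. The difference was 0.49 (SE 0.21) at the brightest probe set and 0.59 at the next, without overlap at either, with an adjusted p of 0.322 (limma with the trend). Pgd, the phosphogluconate dehydrogenase of the oxidative arm, differed by 0.24 (SE 0.24), and Taldo1, transaldolase, by 0.10 (SE 0.17), both with overlap. Idh1 differed by -0.21 (SE 0.38) and had its highest value, 10.84, in wild type pool 2. The second Idh1 probe set differed by -0.65, also with overlap.

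Glutathione transferases attach glutathione to reactive compounds, and none of the 7 had groups without overlap. Mgst1, a membrane-bound transferase that is abundant in liver, read 11.31, 11.93 and 10.74 in wild type pools and 10.62, 10.36 and 10.93 in knockout pools. Wild type pool 3 lay inside the knockout range. The difference was -0.69 (SE 0.35), and -0.39 without wild type pool 2. Gsta4, Gstm5, Gstm1, Mgst3 and Gstp1 had higher means in knockout, by 0.01 to 0.37, and Gsto1 a lower one, by -0.14.

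Of the remaining genes, Keap1 and Nqo1 belong to the NRF2 pathway. Keap1 encodes the sensor that marks NRF2 for degradation. It read 10.65, 10.31 and 10.72 in wild type pools and 10.79, 10.95 and 11.08 in knockout pools. The knockout pools were all higher, by 0.38 on average (SE 0.20), and by 0.62 at the second probe set. Nqo1, a quinone reductase and a standard NRF2 target, read 10.51, 10.55 and 10.45 in wild type pools and 10.32, 10.40 and 10.42 in knockout pools. This is a small gap between tight groups (-0.13, SE 0.16). Msra, which repairs oxidised methionine, differed by -0.27 (SE 0.18) without overlap, and Nqo2 by 0.06 (SE 0.21). Oxr1, an oxidation resistance gene, read 8.72, 9.31 and 9.13 in wild type pools and 8.77, 8.57 and 8.61 in knockout pools. The difference was -0.40 (SE 0.22) with overlap, and -0.27 without wild type pool 2. A second Oxr1 probe set above the control level differed by -0.49, without overlap.

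**Figure D3:**
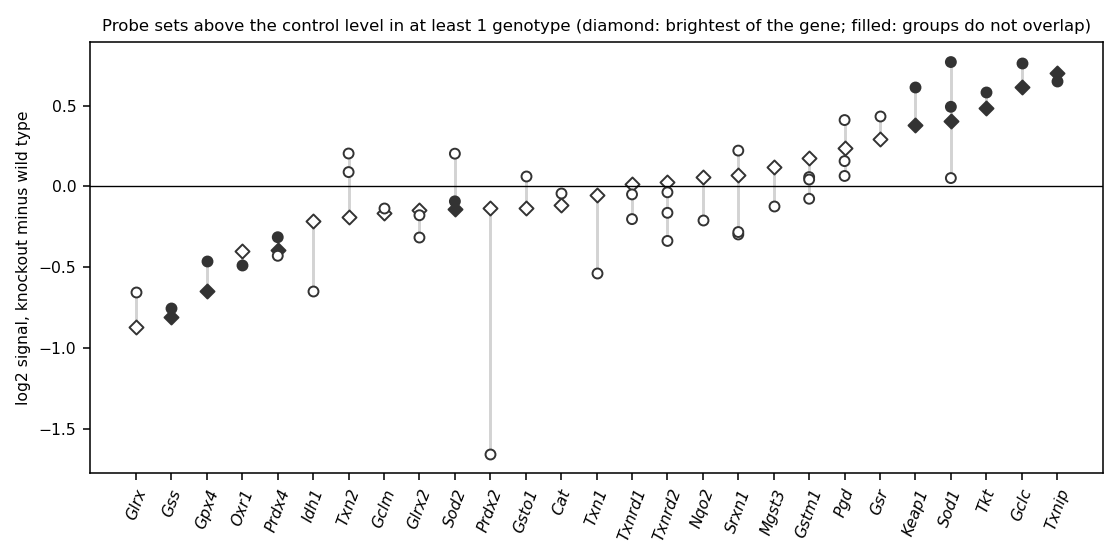
Difference in log2 signal, knockout minus wild type, at each probe set that exceeded the control level in 1 or both genotypes, for the 27 antioxidant genes with more than 1 such probe set. Diamonds are the brightest probe set of a gene and filled symbols mark groups that do not overlap. For 18 genes, among them Gss, Gpx4, Prdx4, Txnip, Gclc, Tkt, Keap1 and Sod1, all probe sets lie on 1 side of 0, and the point at -1.66 is the second Prdx2 probe set. For the other 9 (Srxn1, Sod2, Txn2, Txnrd1, Txnrd2, Gstm1, Gsto1, Mgst3 and Nqo2) they lie on both sides.

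Further genes of these pathways, in lists chosen with results of these data known are given for comparison. Of 57 listed, 53 were measured, and 1 fell and none rose in limma's fit with the trend (1.89%, beside 0.44% of all genes). Glo1, glyoxalase I, which uses glutathione to detoxify methylglyoxal, read 13.39, 13.42 and 13.63 in wild type pools and 12.67, 12.62 and 12.16 in knockout pools. All knockout pools were lower, by -0.99 on average (SE 0.21, adjusted p = 0.0389, limma with the trend). In limma's fit without the trend the adjusted p of Glo1 was 0.355. The fits in which Gss lost its call are not given for Glo1. Rpia, ribose 5-phosphate isomerase of the pentose phosphate pathway, differed by 0.77 (SE 0.22) and the mitochondrial transferase Gstk1 was at least 1.65-fold lower, each without overlap. Gstk1 lay under the control level in knockout, so that level takes its place in the fold. The NRF2 gene Nfe2l2 differed by 0.39 (SE 0.19) and Bach1 by -0.35 (SE 0.16), also without overlap. Hmox1, the heme oxygenase that both factors are known to control, differed by 0.23 (SE 0.53) with overlap. Rpia, Gstk1, Nfe2l2, Bach1 and Hmox1 did not pass in either fit. Of the 9 measured genes listed as NRF2 targets or for heme handling, Hmox1 among them, none had groups without overlap.

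Hepatocytes hold much Mgst1 and Idh1, and the hepatocyte markers are set beside 4 genes pool by pool. The median deviation of 17 markers from their wild type mean was -0.03, 0.52 and -0.51 in wild type pools 1 to 3 and -0.64, -0.77 and -0.43 in knockout pools 1 to 3. Wild type pool 3 therefore lay inside the knockout range of the markers. Mgst1 deviated by -0.01, 0.60 and -0.59 in wild type pools and by -0.71, -0.97 and -0.40 in knockout pools. Idh1 deviated by -0.59, 0.77 and -0.19 in wild type pools and by -0.07, -0.42 and -0.16 in knockout pools. Both genes were highest in wild type pool 2, where the markers were highest. Idh1 at its brightest probe set was lowest in wild type pool 1, and the markers in knockout pool 2. The second Idh1 probe set, also above the control level, was highest in wild type pool 2 (10.47) and lowest in knockout pool 2 (8.88). Gss deviated by 0.13, 0.01 and -0.14 in wild type pools and by -0.89, -0.83 and -0.70 in knockout pools. Gpx4 deviated by -0.01, -0.17 and 0.18 in wild type pools and by -0.62, -0.65 and -0.68 in knockout pools. The part of hepatocyte RNA in the differences of these 4 genes, and of the progenitor markers in those of Gclc, Tkt, Txnip and Keap1, was not tested.

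**Figure D4:**
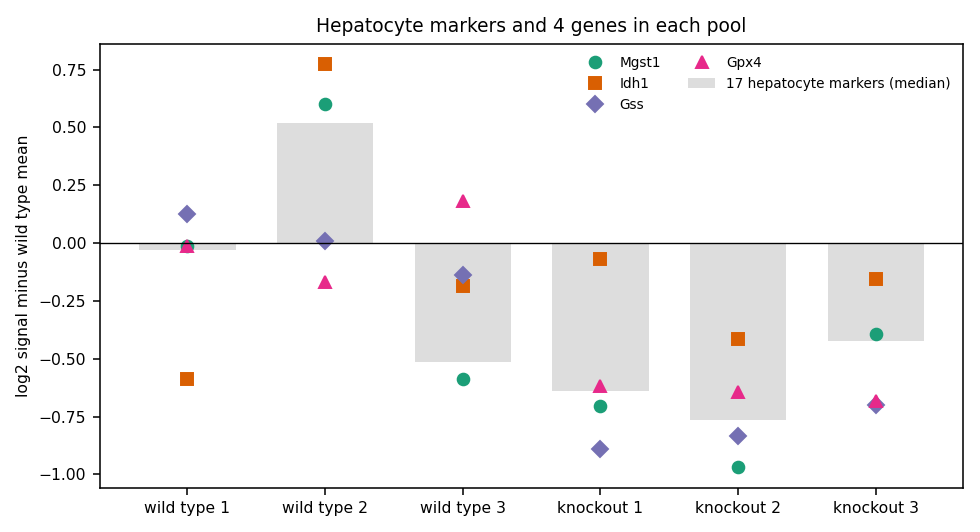
Deviation of log2 signal from the wild type mean in each pool, as bars for the median of 17 hepatocyte markers and as symbols for Mgst1, Idh1, Gss and Gpx4. The markers run from -0.51 to 0.52 in wild type and from -0.77 to -0.43 in knockout pools. The groups of Gss and Gpx4 do not overlap and those of Mgst1 and Idh1 do; the part of hepatocyte RNA in these differences was not tested.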

How the data were processed

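RNA of 6 pools of Ter119-positive fetal liver cells, 3 wild type and 3 STAT5 knockout per the sample titles, was hybridised to Affymetrix Mouse430_2 arrays. The deposited table holds a linear intensity for each of 45101 probe sets and each array. Per the submitters' processing notes the tools were RMA and Partek (versions not given). The values are not as RMA leaves them, since they are linear, arrays differ in their quantiles, and each array's mean after leaving out 2% at each end is 500 (the source of this scaling is not stated). The design text states that the submitters used ANOVA. Names came from GEO's annotation of the platform, in which 34945 had 1 gene symbol, 932 several and 9160 none, leaving out 64 control probe sets. A table of RefSeq genes (GRCm38.p6) held 34741 of the 34945 by Entrez ID and changed 0 symbols.

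Here log2 of the intensity, with no pseudocount, was tested with limma 3.58.1 in R 4.3.3 (lmFit, eBayes) on all 6 arrays and 18193 genes, adjusted by Benjamini-Hochberg and called under 0.05, and again with a mean-variance trend. The number of arrays limits the precision: an exact permutation test of 3 against 3 cannot go below 0.1. The genes and lists were chosen with earlier results of these data known, so no list was tested as a whole. Genes given with all values were those called, those without overlap, above the control level and over 0.5 in size, and the largest difference of each role among genes above the control level in both groups; Sod1, Sod2, Gpx1, Prdx2, Keap1 and Nqo1 were added after their values were seen. Among other pathway genes the first 2 conditions named Glo1, Gstk1 and Rpia, and Nfe2l2, Bach1 and Hmox1 were added likewise. Alternatives are listed in the closing section.

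Replicate numbers of the titles were checked for pairing by correlating, over genes, the deviations of pools from their group means. Same-numbered pools correlated by 0.023 to 0.041 and pools of different number by -0.053 to 0.019. Each same-numbered value was above each of the others, but all were small. The labels do not say whether the numbers mark pairs, and correlations of this size do not decide it.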

Additional observations from a re-analysis of the deposited data

How the results depend on the processing

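Of 224 refits of the 9 genes named by rule (Gss, Gclc, Gpx4, Prdx4, Txnip, Glrx, Tkt, Mgst1 and Oxr1), 220 kept direction and side of the threshold against limma without a trend. None of the 9 passed in that fit, so no call could be lost, and the count does not weigh size. With the mean of all probe sets Prdx4 (-0.04), Mgst1 (-0.18) and Oxr1 (-0.19) count as kept though closer to no difference, while Gclc (0.69) and Tkt (0.54) were larger. Gss passed in 2, with the trend and with quantile normalization and the trend. When only probe sets with names not ending in _x_at, _s_at or _a_at were used, Mgst1 differed by 0.33 and Oxr1 by 0.32, the opposite direction, at other probe sets of these genes that lay under the control level. The trend with quantile normalization, median centring or the mean of probe sets was added after seeing the data. Antioxidant genes called were 0 without the trend, 1 with it and 1 with it after quantile normalization, and 0 without any 1 array, with or without the trend. Against 8 of all genes called, there were 80 with the trend, 4 by the submitters' stated test (a 2-group ANOVA of each gene) with adjustment, 15 after quantile normalization (72 with the trend), 3 after median centring (42 with the trend), 53 when the 50% dimmest genes were left out, 36 with the mean of all probe sets and the trend, and 3 with the probe sets of unshared names. With the replicate number as a block there were 0, and 75 with the block and the trend, and Gss did not pass in either (adjusted p = 0.548 and 0.0902, limma). Without 1 array there were 0, and with the trend 22, 29 and 74 without wild type pool 1, 2 or 3 and 9, 33 and 10 without knockout pool 1, 2 or 3. Of the 80 calls with the trend 44 were higher, of 42 after median centring 29. The median difference of the antioxidant genes, -0.05, was 0.011 after quantile normalization, 0.059 after median centring, 0.057 with probe sets of unshared names and -0.11 (without knockout pool 3) to -0.003 (without knockout pool 1) without 1 array. Groups did not overlap for 12 to 17 antioxidant genes without 1 array, beside 11 with all, since fewer arrays overlap less often. Adding 32 to the signal gave no change of direction or call for the 9 genes.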
